A study of Mus musculus with 71 samples.

Results

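Potassium channel genes were described in mouse embryonic stem (ES) cells that differ in the histone methyltransferases Ezh1 and Ezh2. The members are the 92 genes, of 24222 named in the count tables, whose symbol is Kcn followed by letters and a number. The rule read only the symbols and no measured value. It takes in the auxiliary subunits that carry a Kcn symbol and leaves out channels named otherwise, such as the Hcn genes. By their symbols the 92 fall into 5 classes: 40 pore subunits of voltage-gated channels (Kcna to Kcnd, Kcnf to Kcnh, Kcnq, Kcns, Kcnv), 11 auxiliary subunits of those channels (Kcnab, Kcne, Kcnip), 12 calcium- and sodium-activated channels with their beta subunits (Kcnma, Kcnmb, Kcnn, Kcnt, Kcnu), 15 inward rectifiers (Kcnj) and 14 tandem-pore-domain leak channels (Kcnk).

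The RNA came from 9 libraries of polyA RNA, 3 in each of 3 groups. All are C57BL/6 ES cells kept on gelatin in 2i medium: wild type (WT), a double knockout labelled Ezh1/Ezh2 dKO (dKO), and an EZH2 rescue (rescue), in which wild-type EZH2 was put back. The labels give neither the number of clones nor the construct behind the rescue, nor whether replicates came from separate cultures, so every p-value sets a difference against the variation among these libraries only, which could be technical. Suz12 binding came from 1 list of 7480 peaks from WT ES cells of another strain, 129B6F1, in the same medium, and no peak list of the other groups was analysed here.

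Potassium channels let potassium ions leave or enter the cell along their gradient and so set the resting membrane potential and end action potentials. Voltage-gated members open on depolarisation, calcium-activated members couple to intracellular calcium, inward rectifiers and tandem-pore channels carry resting and leak currents, and most members are best known from neurons, heart and secretory epithelia. Ezh1 and Ezh2 are alternative catalytic subunits of the PRC2 form of Polycomb repressive complex, an enzyme that methylates lysine 27 of histone H3. Suz12 is a core subunit of that complex, and in ES cells the complex is known to sit at CpG-rich starts of genes for development and for specialised tissues.

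Of the 92 members, 48 (52.2%) had a Suz12 peak within 1 kb of a RefSeq start, or within 1 kb of either gene end for the 25 members with no start in the sequence table. Over all 24089 genes placed the same way, 4916 (20.4%) had one. To show what these starts look like, the 250 bases upstream of 1 start are printed for 3 members that rose in dKO and have a start inside a peak (Kcns3, Kcnh1 and Kcnf1) and for 1 that fell and has no peak (Kcnk5), chosen after their values were seen. Kcns3 has 2 starts in the table, and the start with the most CG dinucleotides was used. The Kcns3 and Kcnh1 windows lie inside the RefSeq bounds of their genes. The sequences are RefSeq's on GRCm38.p6, the assembly behind mm10, written 5′ to 3′ on the gene's strand, with each CG dinucleotide, which reads the same on both strands, in capitals. Kcns3 lies at chr12:11150374-11150623 on the minus strand, Kcnh1 at chr1:192190527-192190776 on the plus strand, Kcnf1 at chr12:17176889-17177138 on the minus strand and Kcnk5 at chr14:20181783-20182032 on the minus strand.
Kcns3: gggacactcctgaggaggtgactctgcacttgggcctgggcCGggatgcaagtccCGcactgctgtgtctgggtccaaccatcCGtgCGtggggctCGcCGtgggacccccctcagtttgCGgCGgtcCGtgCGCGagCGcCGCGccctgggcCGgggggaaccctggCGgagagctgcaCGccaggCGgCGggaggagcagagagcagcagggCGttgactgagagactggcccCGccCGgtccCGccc
Kcnh1: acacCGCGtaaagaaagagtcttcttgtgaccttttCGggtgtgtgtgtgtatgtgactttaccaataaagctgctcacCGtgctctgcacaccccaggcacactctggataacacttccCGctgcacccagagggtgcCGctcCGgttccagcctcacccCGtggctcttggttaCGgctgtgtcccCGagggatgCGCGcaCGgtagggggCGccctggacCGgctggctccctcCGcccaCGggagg
Kcnf1: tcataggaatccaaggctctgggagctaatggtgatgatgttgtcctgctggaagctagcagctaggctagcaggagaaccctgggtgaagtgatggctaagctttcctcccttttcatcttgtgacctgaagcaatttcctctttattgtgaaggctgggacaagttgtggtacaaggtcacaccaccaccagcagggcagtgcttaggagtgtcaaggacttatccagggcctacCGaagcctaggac
Kcnk5: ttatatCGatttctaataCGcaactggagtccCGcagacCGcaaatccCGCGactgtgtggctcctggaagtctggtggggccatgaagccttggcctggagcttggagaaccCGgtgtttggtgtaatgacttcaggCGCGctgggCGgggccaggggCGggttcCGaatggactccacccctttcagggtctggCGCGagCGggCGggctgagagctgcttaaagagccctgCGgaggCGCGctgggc

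The Kcns3 stretch holds 23 CG dinucleotides at 72.8% G + C and the Kcnh1 stretch 17 at 62.0%, and both lie whole within a peak. In Kcnf1 the same window holds 1 CG at 51.2%, and the peak at chr12:17175263-17176894 runs from the start into the gene. Kcnk5 has 19 at 62.8% and no peak within 1 kb, so in this group of 4 the CG number does not sort the genes by peak. For all genes 1 window was kept per gene, that of the start with the most CG. The dinucleotide was present in 93.5% of all 17948 such windows and in 95.5% of the 67 Kcn windows. At least 15, a threshold chosen after the data were seen, occurred in 40.3% of Kcn windows and in 39.8% of all windows. Among Kcn genes with a peak 19 of 32 reached it (59.4%) against 8 of 35 without (22.9%), and over all genes the shares were 69.95% and 32.05%. These are descriptions of the letters in the window and were not tested.

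The peaks were not spread evenly over the classes. They lay at 10 of the 14 tandem-pore genes (71.4%) and 27 of the 40 voltage-gated pore genes (67.5%), against 4 of 11 auxiliary subunits (36.4%), 4 of 15 inward rectifiers (26.7%) and 3 of 12 calcium- and sodium-activated members (25.0%). These shares are given as a description, and the plot of peak shares sets them beside all genes. The widest peak at each of the 48 genes had a median width of 1534 bases, from 589 at Kcnn2 to 3956 at Kcnh3, and all 7480 peaks had a median of 1032 bases. Of the 32 members with both a start in the table and a peak, 27 had the start inside the peak, and in 5 (Kcna7, Kcnd3, Kcnh5, Kcnk13, Kcnk4) the peak lay wholly downstream of it. None had it wholly upstream. The peak centre was downstream of the start in 24 of 32, at a median of 258.5 bp, as the map of peaks around starts shows. The list carries no height or score, so these values say where peaks are and not how strong they are.

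**Figure D1:**
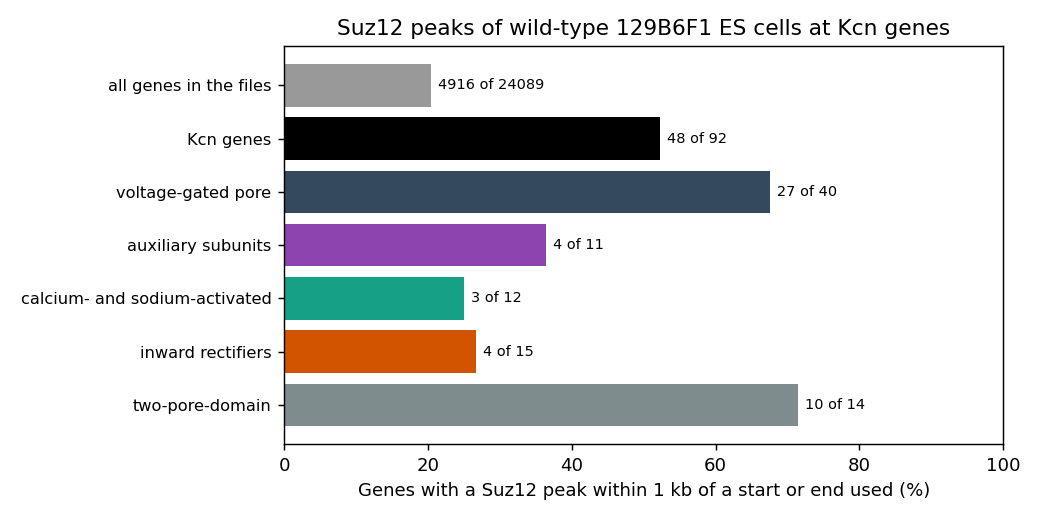
Percent of genes with a Suz12 peak within 1 kb of a start (or of either gene end where no start is in the table), for all genes, all Kcn genes and the 5 classes, with the counts beside each bar. The 2 highest bars are the tandem-pore (two-pore-domain) and voltage-gated pore genes, at 71.4% and 67.5%, against 20.4% of all genes.

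**Figure D2:**
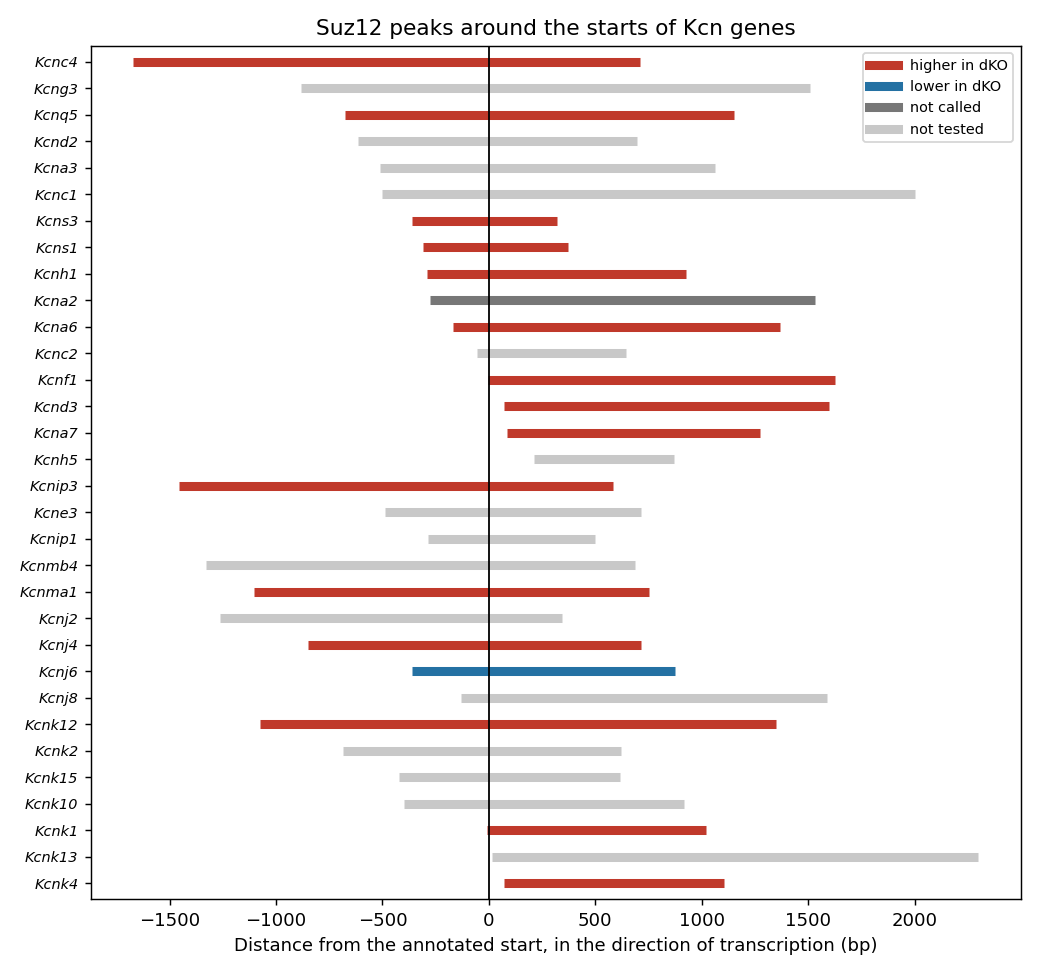
Each bar spans the Suz12 peak at 1 Kcn gene, in bases from the start in the direction of transcription, coloured by the call of the gene's RNA in dKO against WT. In 27 of the 32 genes the bar crosses the start at 0, and in 5 it begins after it.

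The targeted genes were read first. Ezh1 measured 53.4, 48.4 and 47.9 CPM (read counts per 1000000 counts, the library size scaled by edgeR's TMM factors) across the WT libraries, 2.34, 1.83 and 1.8 across dKO and 2.89, 2.33 and 3.42 across rescue. Ezh1 was thus near 0 in both mutant groups, the rescue included. Ezh2 measured 308, 314 and 309.9 CPM across the WT libraries, 192, 191 and 214 across dKO and 555, 576 and 549 across rescue. Its 3 groups did not overlap, and dKO kept most of the Ezh2 level of WT. Where in Ezh2 the deletion lies is not given in the sources used here, so reads outside it would not check the label. Total counts ran from 12457622 to 36009529, and 3 counts, the most that a count of 0 allows, were worth 0.0833 to 0.241 CPM. In a principal component plot dKO replicate 3 stood apart from the other dKO libraries on the second axis (12.3 against -7.46 and -6.42). Values are also given without it for the counts of called genes and for 4 genes in which it lay apart from the other dKO libraries (Kcnh1, Kcnn3, Kcng4 and Dpp6). They are given too for some calls lost without it, such as those of Hcn2 and Dlg4. ES cell markers were high in every group, with a summed level of 8 genes of 5754 to 5912 CPM in WT, 4695 to 5035 in dKO and 6486 to 6563 in rescue.

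Together the 92 genes took 0.0148 to 0.0155% of all counts in WT, 0.0265 to 0.0276% in dKO and 0.0180 to 0.0192% in rescue. The 3 ranges did not overlap. Single genes weigh on these shares. Kcnk5 alone had 3419 counts over the WT libraries, 2108 over dKO and 6119 over rescue, and Kcnh3 had 527, 641 and 2346. The shares therefore do not say how most members changed. Of the 92, 42 had enough counts to be tested (edgeR's quasi-likelihood test on all 14145 genes that passed its filter, Benjamini-Hochberg adjustment, called under 0.05), 50 did not, and 6 of those 50 (Kcna10, Kcnip1, Kcnj5, Kcnk15, Kcnk9 and Kcnmb3) had no count in any library. A gene high in 1 group only can pass that filter through this group, so the counts below describe the tested members and not all 92. With only the 2 groups compared in the fit, Kcnk12 and Kcnk4 did not pass it in dKO against WT, Kcna2 in either rescue comparison, or Kcng2 and Kcnn3 in rescue against WT. The 3 comparisons share libraries, so their values are set side by side and no overlap between them is given. In bulk RNA, more cells with a transcript and more transcript per cell cannot be told apart.

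In dKO against WT, 30 of the 42 tested Kcn genes rose and 5 fell, and 7 were not called. Over all tested genes 33.7% were called higher and 31.0% lower, 64.7% in all. The median log2 fold change was 1.43 over the 42 genes and -0.00 over all genes. Of the 30, 27 rose by more than 2-fold, a call that 19.1% of all genes received, and 2 of the 5 fell by more than 2-fold (4.39% of all genes). The libraries of the groups did not overlap for 35 of 42, and for 68.0% of all genes. Among the 20 members with a mean of at least 2 CPM over the 9 libraries, 14 rose and 3 fell, where 32.4% and 29.4% of the 11716 genes kept by that filter did. That mean takes in the dKO libraries, so a gene high in dKO only can pass this filter as well. Kcnh1, for example, averaged 0.619 CPM in WT and 10.9 in dKO. Without dKO replicate 3 the counts were 31 higher and 4 lower.

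In rescue against dKO, 30 of 42 fell and 7 rose, with 38.2% of all genes called lower and 32.1% higher, 70.3% in all. The median was -1.57 over the Kcn genes and -0.04 over all genes. Without dKO replicate 3, 31 fell and 6 rose. More than 2-fold falls numbered 26 (19.9% of all genes) and rises 3 (5.03%), and the groups were apart for 38 of 42 (71.7% of all genes). In rescue against WT, 12 were higher, 8 lower and 22 not called, against 26.8% and 27.3% of all genes called higher and lower, 54.1% in all. By more than 2-fold, 7 were higher and 7 lower, and 6.43% and 6.50% of all genes were. The median was 0.21 against 0.00 over all genes, and the groups were apart for 24 of 42 (65.3% of all genes).

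**Figure D3:**
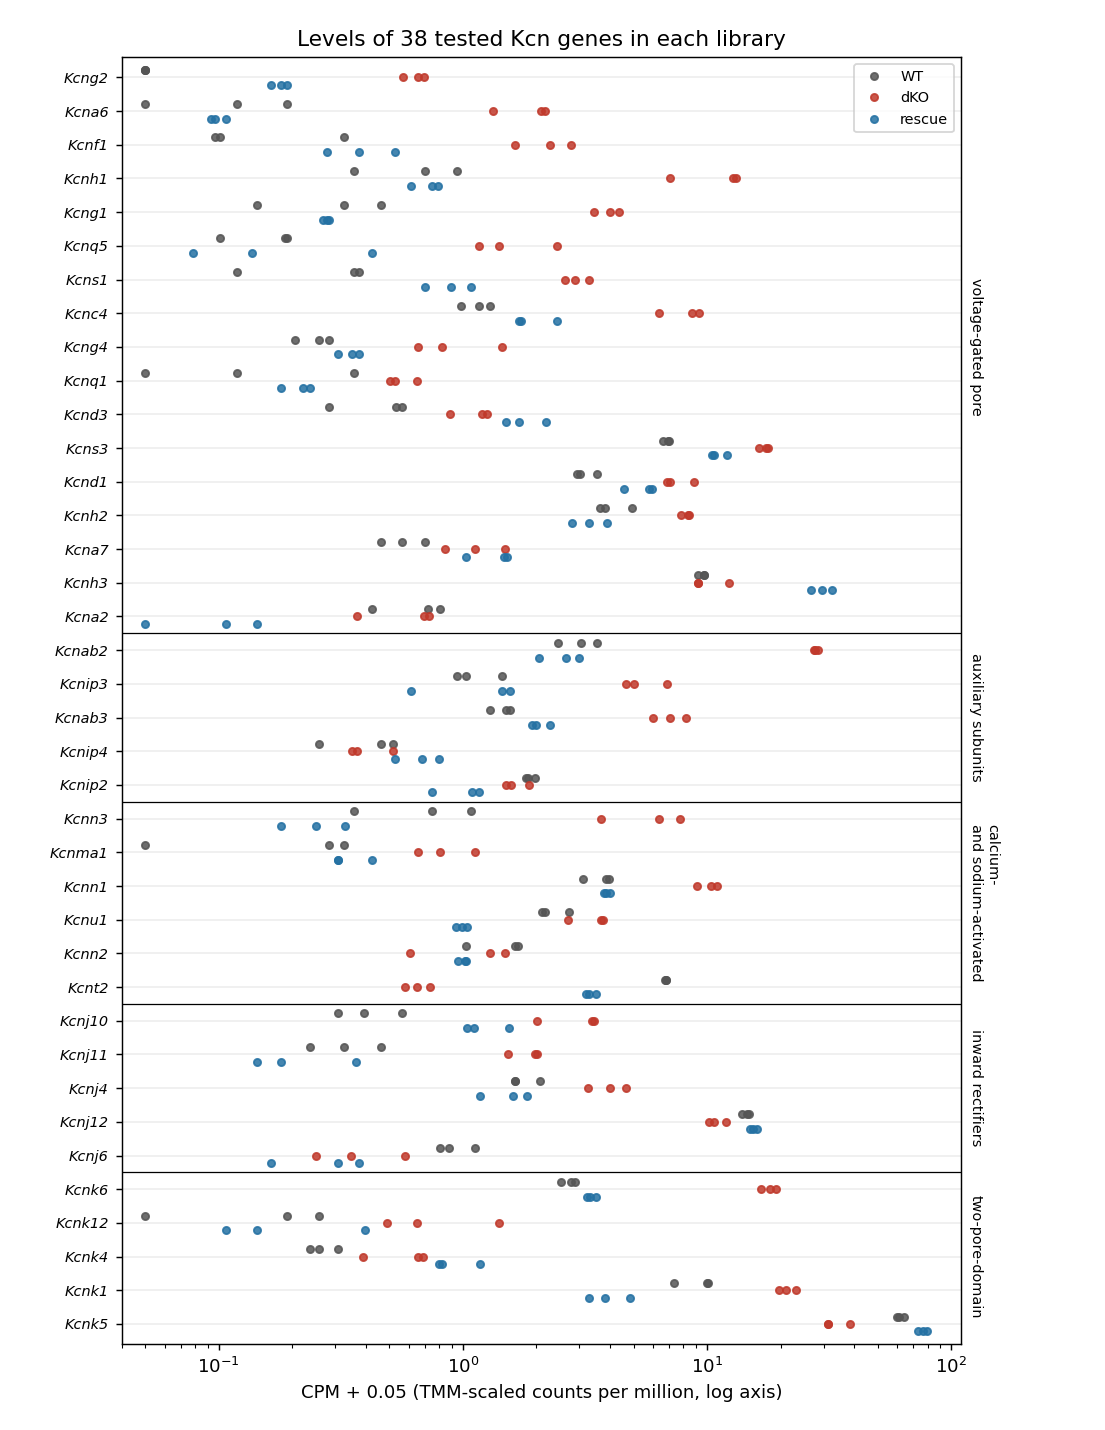
Level of 38 of the 42 tested Kcn genes in the 9 libraries (CPM + 0.05, log axis; 1 point is 1 library), ordered within class by the change in dKO. Levels are not scaled to gene length and are to be compared along a row only: in 29 rows the dKO points are called higher than WT, in 4 lower.

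**Figure D4:**
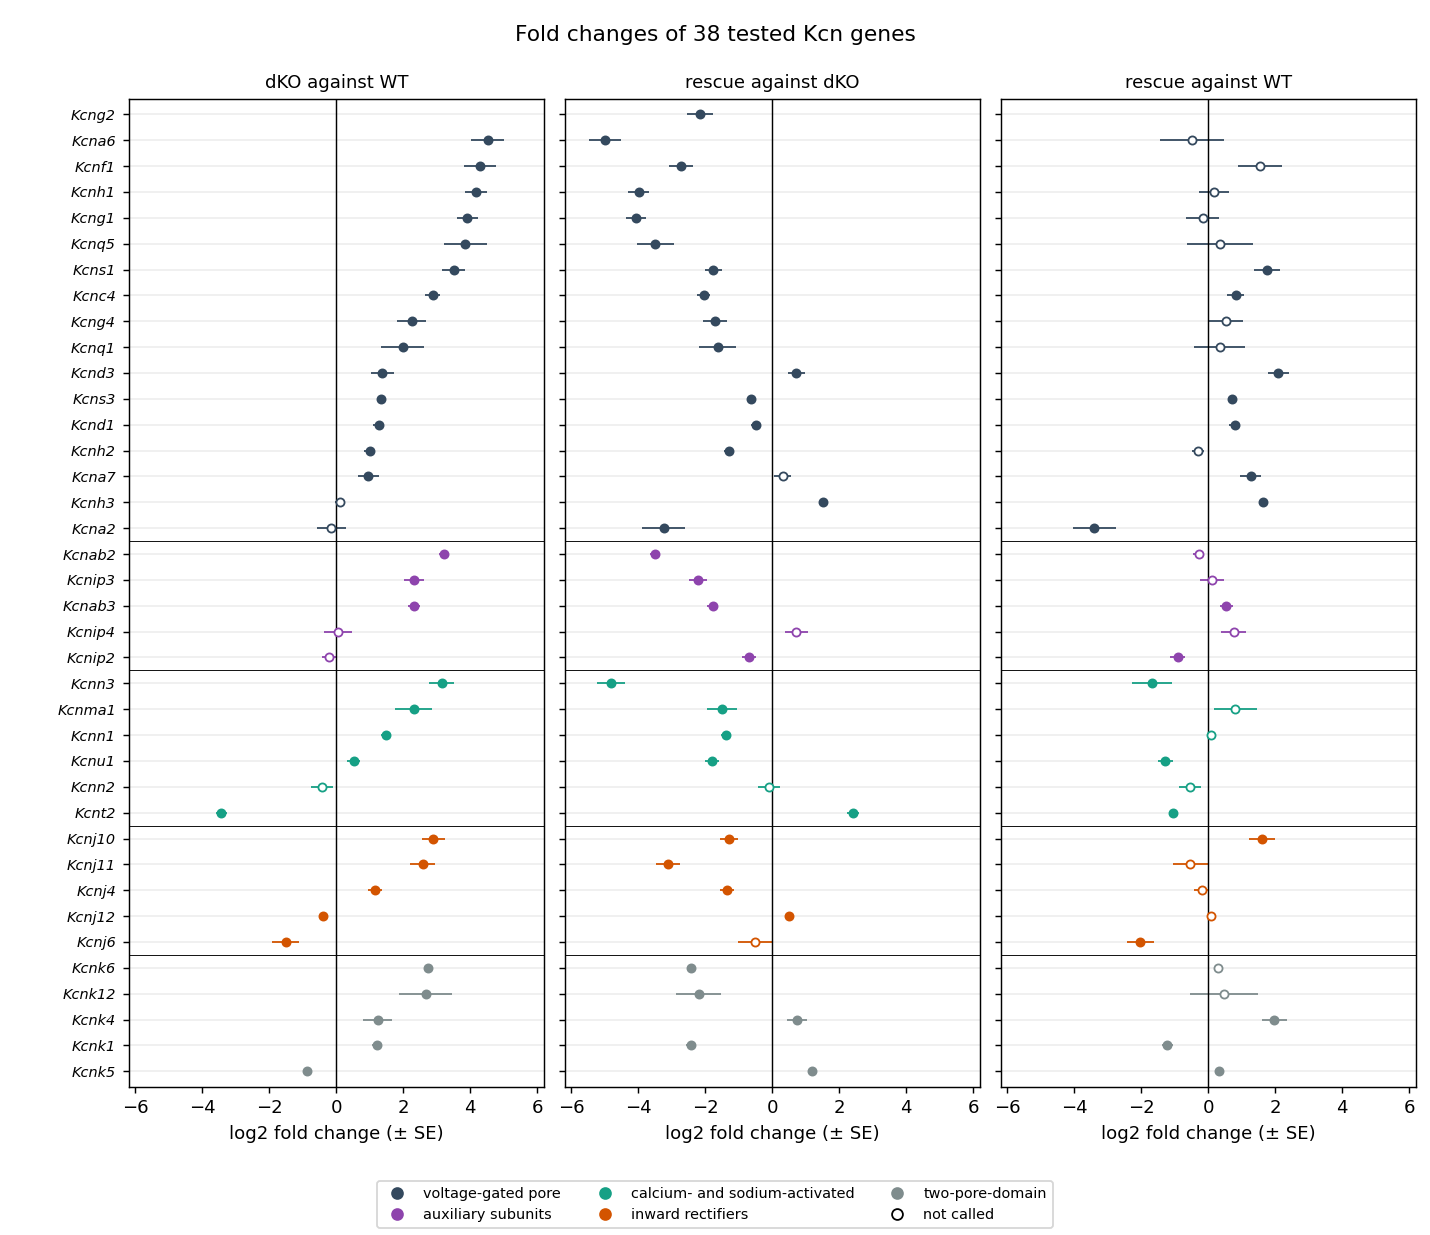
Log2 fold change ± SE of 38 of the 42 tested Kcn genes in the 3 comparisons, with filled points where the gene was called and open points where it was not. The median over all 42 is 1.43 in dKO against WT, -1.57 in rescue against dKO and 0.21 in rescue against WT; Kcng2 has no point in the panels against WT, where it had no count.

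By class, 16 of 21 tested voltage-gated pore genes rose in dKO and 1 fell, with a median log2 fold change of 1.98. This and the counts of the smaller classes that follow stand beside 33.7% of all genes called higher and 31.0% lower, and no class was tested against the others. The class holds subunits that conduct on their own and electrically silent ones (Kcnf, Kcng, Kcns, Kcnv), which modify the conducting channels they assemble with. The 16 include the 6 tested genes of the silent kind, Kcnf1, Kcng1, Kcng2, Kcng4, Kcns1 and Kcns3, which were grouped after the calls were known, so nothing particular to them is read from this.

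Kcns3, one of the silent modifiers (chr12:11090202-11151168), measured 6.89, 6.57 and 6.96 CPM across the WT libraries, 17.8, 17.3 and 16.3 across dKO and 12, 10.6 and 10.5 across rescue. Its 3 groups did not overlap, and rescue lay between the others. Its log2 fold change was 1.33 ± 0.10 (SE) in dKO against WT (edgeR adjusted p 3.04e-07), -0.63 ± 0.093 in rescue against dKO and 0.70 ± 0.10 in rescue against WT (edgeR adjusted p 6.99e-05 and 0.000121). Kcng1 (chr2:168260117-168281533) measured 0.275, 0.0933 and 0.413 CPM across the WT libraries, 3.39, 4.31 and 3.95 across dKO and 0.229, 0.233 and 0.216 across rescue. All dKO libraries were above all others, and WT and rescue overlapped. It rose by 3.92 ± 0.32 on the log2 scale in dKO (edgeR adjusted p 5.72e-07), and rescue against dKO was -4.08 ± 0.30 (edgeR adjusted p 2.1e-07). Kcng2 had no count in WT, 36 counts over the dKO libraries (0.603, 0.64 and 0.519 CPM) and 10 over the rescue libraries (0.114, 0.14 and 0.13). Set against 3 counts over the WT group, dKO was at least 10.8-fold higher and rescue at least 2.32-fold higher, and both were called (edgeR adjusted p 4.55e-05 and 0.00611). Kcng2 passed the count filter through dKO, and with only the WT and rescue libraries in the fit it was not tested, so the rescue against WT call exists only in the fit of all 3 groups. Its 37 tested neighbours within 5 Mb on chromosome 18 had median log2 fold changes of 0.51 and 0.54 in these comparisons, whose part in the result was not tested.

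Kcns1 measured 0.0689, 0.326 and 0.309 CPM across the WT libraries, 2.56, 3.24 and 2.83 across dKO and 1.03, 0.84 and 0.648 across rescue. Here too the groups were apart and rescue was intermediate. The log2 fold changes were 3.5 ± 0.34 in dKO against WT, -1.75 ± 0.25 in rescue against dKO and 1.75 ± 0.39 in rescue against WT (edgeR adjusted p 2.44e-06, 5.63e-05 and 0.00265). Kcnf1, whose upstream window holds a single CG, measured 0.275, 0.0466 and 0.0516 CPM across the WT libraries, 1.58, 2.22 and 2.71 across dKO and 0.229, 0.327 and 0.476 across rescue. WT replicate 1 overlapped the rescue libraries, and no WT or rescue library reached dKO. It rose by 4.28 ± 0.48 in dKO (edgeR adjusted p 9.18e-06), or 5.35 without WT replicate 1. Kcng4, at 0.207, 0.233 and 0.155 CPM across the WT libraries, 0.603, 0.768 and 1.4 across dKO and 0.257, 0.327 and 0.303 across rescue, rose by 2.25 ± 0.43 (edgeR adjusted p 0.000586). Without dKO replicate 3, the highest of the dKO libraries, the rise of Kcng4 was 1.80. In rescue against dKO, Kcnf1 was -2.73 ± 0.36 and Kcng4 -1.72 ± 0.36 (edgeR adjusted p 2.68e-05 and 0.00111), and neither was called in rescue against WT.

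Among the conducting subunits, Kcnh1 of the ether-a-go-go family (chr1:192189144-192510159), known from brain and from tumours, measured 0.895, 0.653 and 0.309 CPM across the WT libraries, 13.1, 12.7 and 6.99 across dKO and 0.743, 0.70 and 0.562 across rescue. The dKO libraries stood above all others, with replicate 3 lower than the other two, and WT and rescue overlapped. It rose by 4.16 ± 0.33 on the log2 scale in dKO (edgeR adjusted p 5.78e-07) and fell by 3.99 in rescue against dKO (edgeR adjusted p 3.42e-07). Without dKO replicate 3 these values were 4.42 and -4.24. The rescue against WT difference was 0.17 ± 0.46 and was not called. Kcnc4, a fast-inactivating channel of the Kcnc family, measured 1.24, 1.12 and 0.928 CPM across the WT libraries, 8.66, 9.22 and 6.31 across dKO and 2.37, 1.68 and 1.64 across rescue. Its groups were apart in the order WT, rescue, dKO. It changed by 2.88 ± 0.23 in dKO against WT and by -2.05 ± 0.20 in rescue against dKO (edgeR adjusted p 4.67e-07 and 1.97e-06). The rescue against WT value of 0.83 ± 0.25 (edgeR adjusted p 0.0158) was no longer called without WT replicate 3 (0.0648) or without rescue replicate 1 (0.0851).

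Kcna6, an axonal channel of the Kcna family, had 4 counts over WT, 108 over dKO and 4 over rescue. Each dKO library was above every other library. It rose by 4.52 ± 0.50 (edgeR adjusted p 8.41e-06), or 5.66 without WT replicate 2, and changed by -4.99 ± 0.48 in rescue against dKO (edgeR adjusted p 2.18e-06). Kcnh2, the cardiac repolarising channel of the same family as Kcnh1, measured 3.79, 3.59 and 4.9 CPM across the WT libraries, 7.76, 8.36 and 8.3 across dKO and 3.86, 2.75 and 3.24 across rescue, and changed by 0.99 ± 0.16 in dKO and by -1.29 ± 0.16 in rescue against dKO (edgeR adjusted p 0.000154 and 1.31e-05). Kcnq5 and Kcnq1, of the Kcnq family, rose in dKO from few counts. Kcnq5 had 6 counts in WT and 102 in dKO (log2 fold change 3.85 ± 0.64, edgeR adjusted p 0.000224). Kcnq1, a cardiac and epithelial channel, had 7 and 32 (1.98 ± 0.63, edgeR adjusted p 0.0158). The Kcnq1 value is uncertain: it was 1.31 and not called without WT replicate 2 (edgeR adjusted p 0.056), 3.97 without WT replicate 3, and not called without WT replicate 1 (0.052), and the antisense Kcnq1ot1 overlaps the gene, whose reads an unstranded library cannot separate. In rescue against dKO the log2 fold changes were -3.49 ± 0.56 for Kcnq5, with -2.83 and -4.83 without rescue replicates 1 and 2, and -1.63 ± 0.55 for Kcnq1 (edgeR adjusted p 0.000135 and 0.0187). The Kcnq1 call was lost without dKO replicate 2, rescue replicate 1 or rescue replicate 3 (0.0555 to 0.0657) and under DESeq2 (0.0548).

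Kcnh3, a neuronal relative of Kcnh1, followed neither direction: it measured 9.16, 9.65 and 9.64 CPM across the WT libraries, 9.12, 9.09 and 12.3 across dKO and 29.4, 26.6 and 32.4 across rescue. WT and dKO overlapped, and all rescue libraries were above both. It was 1.52 ± 0.12 higher on the log2 scale in rescue than in dKO and 1.63 ± 0.12 higher than in WT (edgeR adjusted p 4.59e-07 and 1.11e-06), and Mcrs1 overlaps it.

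Kcna2, an axonal channel, measured 0.757, 0.373 and 0.67 CPM across the WT libraries, 0.678, 0.64 and 0.319 across dKO and 0.0572, 0.0934 and 0 across rescue. WT and dKO overlapped, and every rescue library was below them, at 4 counts in all against 32 in each other group. The change was -0.15 ± 0.43 in dKO, not called, and -3.39 ± 0.64 in rescue against WT (edgeR adjusted p 0.000859). The A-type channel gene Kcnd3 measured 0.482, 0.233 and 0.516 CPM across the WT libraries, 1.21, 1.15 and 0.838 across dKO and 1.46, 2.15 and 1.64 across rescue. Its groups were apart with rescue highest, at 2.1 ± 0.32 over WT (edgeR adjusted p 0.000193), 1.38 ± 0.35 for dKO over WT and 0.72 ± 0.26 for rescue over dKO (edgeR adjusted p 0.00455 and 0.0272). The last was lost under DESeq2 (0.0590), without dKO replicate 3 (0.0829) or without rescue replicate 2 (0.0986). The gene Kcnd3os overlaps Kcnd3. Kcna2, Kcnc4, Kcnd3 and Kcnn3 lie on chromosome 3, where the median log2 fold change over 619 tested genes was -0.43 in rescue against dKO and -0.40 in rescue against WT, and -0.03 in dKO against WT. Over chromosome 14, which holds Kcnk5 and Kcnma1, it was -0.78 and -0.85 in the rescue comparisons. Among the 40 neighbours of Kcnk5 it was -0.10 and -0.03, and among the 46 of Kcnma1 -0.02 and -0.06. The part of these shifts in the results was not tested. Without the 4 tested members on chromosome 3 and the 2 on chromosome 14, 26 of the remaining ones fell and 5 rose in rescue against dKO. Over all tested genes of all chromosomes 38.2% were called lower and 32.1% higher.

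Kcnd1, another A-type channel gene, measured 2.96, 2.89 and 3.51 CPM across the WT libraries, 7.01, 8.79 and 6.83 across dKO and 5.92, 4.53 and 5.75 across rescue. The groups were apart with rescue between. It changed by 1.28 ± 0.16 in dKO against WT and 0.80 ± 0.17 in rescue against WT (edgeR adjusted p 2.79e-05 and 0.00162), while its 51 tested neighbours within 5 Mb on the X chromosome had medians of 0.77 and 0.97, whose part was not tested. The call of rescue against dKO (-0.48 ± 0.15, edgeR adjusted p 0.0124) was lost without dKO replicate 2 (0.0731) or rescue replicate 2 (0.0525). Kcna7, a channel described in skeletal muscle and heart, was called higher in dKO (0.96 ± 0.33, edgeR adjusted p 0.0214), a call lost without any 1 of 4 libraries (WT replicates 1 and 3, dKO replicates 1 and 2; 0.0502 to 0.0685), and was 1.27 ± 0.31 in rescue against WT (edgeR adjusted p 0.00416).

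Of the 5 auxiliary subunits tested, 3 rose in dKO and none fell (33.7% and 31.0% of all genes). Kcnab2, a cytoplasmic beta subunit of Kcna channels (chr4:152390744-152477549), measured 2.41, 3.5 and 2.99 CPM across the WT libraries, 28.3, 27.5 and 27.7 across dKO and 2.0, 2.94 and 2.59 across rescue. All dKO libraries were far above the rest, and WT and rescue overlapped. It rose by 3.21 ± 0.15 on the log2 scale (edgeR adjusted p 5.35e-09) and changed by -3.49 ± 0.15 in rescue against dKO (edgeR adjusted p 2.54e-09). No Suz12 peak lay within 1 kb of its start, and Nphp4 overlaps it. Kcnab3, of the same beta family and with a peak at chr11:69325972-69327003, measured 1.51, 1.45 and 1.24 CPM across the WT libraries, 8.14, 7.0 and 5.95 across dKO and 2.23, 1.87 and 1.95 across rescue. Its groups were apart, with rescue nearer to WT. It rose by 2.32 ± 0.18 in dKO (edgeR adjusted p 4.13e-07), and the rescue against WT value of 0.54 ± 0.20 (edgeR adjusted p 0.0352) was lost without any 1 of 5 libraries (all WT replicates and rescue replicates 1 and 3; 0.0542 to 0.128) and under DESeq2 (0.0608).

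The other auxiliary genes tested are calcium sensors that assemble with Kcnd channels. Kcnip3, which is also described as a calcium-regulated transcriptional repressor, measured 0.895, 0.979 and 1.39 CPM across the WT libraries, 4.6, 4.99 and 6.83 across dKO and 1.4, 0.56 and 1.51 across rescue. Only the dKO libraries stood apart from both other groups. It rose by 2.33 ± 0.30 in dKO and fell by 2.21 in rescue against dKO (edgeR adjusted p 2.95e-05 and 2.03e-05). Kcnip4 had the largest adjusted p of its class in dKO (0.04 ± 0.42, edgeR adjusted p 0.941), with 0.413, 0.466 and 0.206 CPM in WT and 0.301, 0.469 and 0.319 in dKO, which overlapped. The gene 5730480H06Rik overlaps Kcnip4. Kcnip2 was not called in dKO (-0.22 ± 0.21) and was lower in rescue than in WT (-0.91 ± 0.22, edgeR adjusted p 0.00415) and than in dKO (-0.69 ± 0.22, edgeR adjusted p 0.0147), the latter lost without rescue replicate 2 (0.0532).

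In the calcium- and sodium-activated class 4 of 6 tested genes rose in dKO and 1 fell (33.7% and 31.0% of all genes). The gene that fell, Kcnt2 (chr1:140245657-140614045), encodes a sodium-activated channel. It measured 6.75, 6.71 and 6.65 CPM across the WT libraries, 0.527, 0.683 and 0.599 across dKO and 3.14, 3.22 and 3.46 across rescue. The groups were apart, with rescue between the other two. Kcnt2 fell by 3.44 on the log2 scale in dKO (SE 0.17, edgeR adjusted p 9.29e-09), rose by 2.4 ± 0.18 in rescue against dKO (edgeR adjusted p 2.22e-07) and stayed lower than WT in rescue by -1.04 ± 0.13 (edgeR adjusted p 3.97e-05). No peak lay within 1 kb of its start, and 4930590L20Rik overlaps it. The small-conductance calcium-activated genes were split. Kcnn1 measured 3.92, 3.82 and 3.04 CPM across the WT libraries, 10.9, 10.4 and 9.02 across dKO and 3.94, 3.74 and 3.8 across rescue, with dKO above the rest, and rose by 1.49 ± 0.14 in dKO (edgeR adjusted p 1.7e-06).

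Kcnn3 measured 1.03, 0.699 and 0.309 CPM across the WT libraries, 6.33, 7.68 and 3.63 across dKO and 0.20, 0.28 and 0.13 across rescue. Its groups were apart with rescue lowest, and dKO replicate 3 was lower than the other dKO libraries. It rose by 3.14 ± 0.37 in dKO and was -4.82 ± 0.42 in rescue against dKO (edgeR adjusted p 1.45e-05 and 9.99e-07). Without dKO replicate 3 these were 3.43 and -5.10. The rescue against WT value of -1.67 ± 0.60 (edgeR adjusted p 0.0322) was not called when WT replicate 1 or 2, or rescue replicate 1 or 3, was left out (0.0827 to 0.119). Kcnn2, which has a peak and overlaps A330093E20Rik, was not called in any comparison (-0.44 ± 0.33 in dKO, edgeR adjusted p 0.262). Kcnma1, the large-conductance calcium-activated pore, had 9 counts in WT, 52 in dKO and 23 in rescue. Every dKO library was above every other, and it rose by 2.32 ± 0.55 (edgeR adjusted p 0.00275), or 1.72 without WT replicate 3, which had no count. Its fall in rescue against dKO (-1.5 ± 0.45, edgeR adjusted p 0.00978) was lost without dKO replicate 2 (0.0537).

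Kcnu1, the pH-sensitive channel known from sperm, measured 2.07, 2.66 and 2.11 CPM across the WT libraries, 3.62, 3.71 and 2.64 across dKO and 0.943, 0.887 and 0.994 across rescue. WT and dKO overlapped and all rescue libraries were below both. Its call in dKO (0.52 ± 0.19, edgeR adjusted p 0.0315) was lost without any 1 of 4 libraries (WT replicates 1 and 3, dKO replicates 1 and 2; 0.0812 to 0.122), under DESeq2 (0.0742) and with only these 2 groups in the fit (0.0552). In rescue it was -1.28 ± 0.22 against WT and -1.8 ± 0.21 against dKO (edgeR adjusted p 0.000417 and 8.92e-06).

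Of the 5 inward rectifiers tested, 3 rose in dKO and 2 fell (33.7% and 31.0% of all genes). Kcnj11, the pore of the ATP-sensitive channel of beta cells, measured 0.275, 0.187 and 0.413 CPM across the WT libraries, 1.96, 1.92 and 1.48 across dKO and 0.314, 0.0934 and 0.13 across rescue. The dKO libraries were above all others, and WT and rescue overlapped. It rose by 2.58 ± 0.37 in dKO (edgeR adjusted p 7e-05) and changed by -3.12 ± 0.37 in rescue against dKO (edgeR adjusted p 1.08e-05), or -3.90 without rescue replicate 1. Abcc8, which encodes the sulfonylurea receptor that completes this channel, measured 2.0, 2.56 and 2.63 CPM across the WT libraries, 24.6, 27.2 and 22.5 across dKO and 5.0, 4.62 and 4.8 across rescue. It too had all dKO libraries above the rest, with a log2 fold change of 3.35 ± 0.13 in dKO and -2.36 ± 0.11 in rescue against dKO (edgeR adjusted p 1.65e-09 and 7.54e-09). The 2 genes differed in rescue against WT. There Abcc8 was 0.99 on the log2 scale, with all rescue libraries above WT, and Kcnj11 was -0.53 and not called.

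Kcnj10, the glial inward rectifier, measured 0.344, 0.513 and 0.258 CPM across the WT libraries, 3.39, 1.96 and 3.31 across dKO and 1.06, 1.49 and 0.994 across rescue. Its groups were apart with rescue between. It rose by 2.9 ± 0.34 in dKO and remained 1.61 ± 0.38 above WT in rescue (edgeR adjusted p 1.39e-05 and 0.00343). Kcnj4, a strong inward rectifier of forebrain and heart, measured 1.58, 1.59 and 2.01 CPM across the WT libraries, 4.6, 3.97 and 3.19 across dKO and 1.77, 1.12 and 1.56 across rescue, and rose by 1.15 ± 0.22 in dKO (edgeR adjusted p 0.000538). Kcnj12, of the same strong inward rectifier group, measured 14.5, 13.9 and 14.9 CPM across the WT libraries, 10.6, 10.1 and 11.9 across dKO and 15.4, 14.9 and 15.9 across rescue. All dKO libraries were below both other groups, though by little: it fell by 0.41 on the log2 scale in dKO (SE 0.094, edgeR adjusted p 0.00239) and rose by 0.50 ± 0.092 in rescue against dKO (edgeR adjusted p 0.000382). Kcnj6, a subunit of the G protein-gated channel, measured 0.757, 1.07 and 0.825 CPM across the WT libraries, 0.527, 0.299 and 0.20 across dKO and 0.114, 0.327 and 0.259 across rescue. WT was above both other groups, which overlapped, with -1.51 ± 0.41 in dKO and -2.02 ± 0.41 in rescue against WT (edgeR adjusted p 0.0062 and 0.00146). Kcnj6 fell in dKO and carries a Suz12 peak.

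Of the 5 tandem-pore genes tested, 4 rose in dKO and 1 fell (33.7% and 31.0% of all genes). Kcnk6 (chr7:29221928-29232522, with a peak at chr7:29231997-29233444), a weak inward-rectifying leak channel found in intracellular compartments, measured 2.82, 2.47 and 2.73 CPM across the WT libraries, 18, 16.5 and 19 across dKO and 3.17, 3.27 and 3.46 across rescue. The dKO libraries were all well above the rest, and rescue was slightly above WT without overlap. Its log2 fold change was 2.74 ± 0.12 in dKO and -2.44 ± 0.11 in rescue against dKO (edgeR adjusted p 3.47e-09 and 4.79e-09), and 0.31 ± 0.13 in rescue against WT, which was not called. Kcnk1, its close relative, measured 7.3, 10.1 and 9.95 CPM across the WT libraries, 23, 21.1 and 19.7 across dKO and 3.77, 3.22 and 4.8 across rescue. The groups were apart, with rescue below WT. It rose by 1.21 ± 0.15 in dKO and was -2.43 ± 0.16 in rescue against dKO and -1.22 ± 0.16 in rescue against WT (edgeR adjusted p 1.8e-05, 7.51e-08 and 7.33e-05).

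Kcnk5, the acid- and volume-sensitive leak channel known from kidney, measured 59.9, 61.2 and 63.7 CPM across the WT libraries, 31.3, 31.2 and 38.4 across dKO and 79.5, 76.8 and 73.2 across rescue. The groups were apart with dKO lowest and rescue highest. It fell by 0.87 on the log2 scale in dKO (SE 0.085, edgeR adjusted p 2.71e-06), and was 1.18 ± 0.084 in rescue against dKO and 0.31 ± 0.082 in rescue against WT (edgeR adjusted p 1.71e-07 and 0.00671). Kcnk4, a mechanically gated leak channel, measured 0.207, 0.187 and 0.258 CPM across the WT libraries, 0.603, 0.341 and 0.639 across dKO and 0.772, 0.747 and 1.12 across rescue. Its groups were apart with rescue highest, at 1.98 ± 0.38 over WT (edgeR adjusted p 0.000972). Its calls in dKO (1.24 ± 0.43, edgeR adjusted p 0.0238) and in rescue against dKO (0.74 ± 0.31, edgeR adjusted p 0.0484) were not stable: the first was lost under DESeq2 (0.0658) and without any 1 of 4 libraries (WT replicates 1 and 2, dKO replicates 1 and 3; 0.0526 to 0.106), and the second was lost under DESeq2 (0.154), with no low-count filter or only these 2 groups in the fit (0.0612 in each) and without any 1 of 8 libraries (all but dKO replicate 3; 0.0512 to 0.213). Kcnk12, a silent relative of Kcnk13, had 6 counts in WT, 43 in dKO and 12 in rescue and rose by 2.67 ± 0.79 (edgeR adjusted p 0.0102), or 2.08 without WT replicate 3, which had no count. In rescue against dKO it was -2.2 ± 0.67 (edgeR adjusted p 0.011), which was -3.24 without rescue replicate 3 and not called without rescue replicate 1 (0.0616).

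Suz12 peaks lay at 27 of the 42 tested Kcn genes (64.3%), beside 26.8% of all tested genes, and at 21 of the 50 not tested (42%), beside 11.4% of all genes not tested. Among the 27 tested members that carry one, 21 rose in dKO, 2 fell and 4 were not called, with a median log2 fold change of 1.98. Over all 3778 tested genes with a peak 58.8% were called higher and 16.1% lower, with a median of 0.59. Of the 15 members without a peak, 9 rose, 3 fell and 3 were not called, with a median of 0.99, and over all 10324 tested genes without one 24.5% were called higher and 36.5% lower, with a median of -0.10. The difference between the sets was not tested, and the peaks come from another strain than the RNA. The 9 that rose without a peak were Kcnab2, Kcnd1, Kcng4, Kcnh2, Kcnj10, Kcnj11, Kcnn1, Kcnn3 and Kcnu1.

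The 50 members that were not tested summed to 116 counts in WT, 384 in dKO and 282 in rescue, or 1.91 to 2.38, 5.50 to 6.51 and 3.08 to 3.93 CPM per library. The dKO range lay above the rescue range and the rescue range above WT. Counts were found for 30 of the 50 in WT and for 39 in each of the other groups. Kcne1, the beta subunit that slows Kcnq1, had 34 counts in dKO, 1 in WT and 2 in rescue, a dKO to WT ratio of 30.5 scaled to library size (95% exact interval 5.11 to 1239, counting error only). Kcnc1, a fast delayed rectifier of interneurons, had 21, 3 and 3 (ratio 6.28, 1.87 to 32.9), and Kcna1, an axonal channel, had 19, 1 and 3 (17.0, 2.71 to 708). Against 3 counts over WT, where each had none, dKO was at least 6.28-fold higher for Kcnb2 (21 counts), 3.88-fold for Kcna5 (13) and 3.59-fold for Kcnmb2 (12). Kcnh8 went the other way, with 10 counts in WT, 11 in rescue and none in dKO, which is at least 3.72-fold lower. These genes were picked after their counts were seen. The others untested with counts were Kcna3, Kcna4, Kcnab1, Kcnc2, Kcnd2, Kcne2, Kcne3, Kcne4, Kcng3, Kcnh4, Kcnh5, Kcnh6, Kcnh7, Kcnj1, Kcnj13, Kcnj14, Kcnj15, Kcnj16, Kcnj2, Kcnj3, Kcnj8, Kcnj9, Kcnk10, Kcnk13, Kcnk16, Kcnk18, Kcnk2, Kcnk3, Kcnk7, Kcnmb1, Kcnmb4, Kcnn4, Kcnq3, Kcns2, Kcnt1, Kcnv1 and Kcnv2, at a highest level of 0.603 CPM in any library.

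Genes that work beside potassium channels were read from lists of other channels and partners. Of 18 voltage-gated calcium channel genes 12 were tested and 10 rose in dKO, none fell, with a median of 1.86; Cacna1h, a T-type channel, rose by 3.39 ± 0.29 and the beta subunit Cacnb3 by 1.45 ± 0.10 (edgeR adjusted p 9.24e-07 and 1.9e-07). In rescue against dKO 10 of the 12 fell and 1 rose. Of 13 voltage-gated sodium channel genes 9 were tested: 5 rose and 1, Scn3a (-1.0 ± 0.098, edgeR adjusted p 2.95e-06), fell. Of the 4 Hcn pacemaker genes 2 rose, among them Hcn2 (0.44 ± 0.17, edgeR adjusted p 0.0331). The Hcn2 libraries of WT and dKO overlapped, and its call was lost without dKO replicate 3 (0.30, edgeR adjusted p 0.109). Among 13 tested partners of potassium channels 3 rose (Abcc8, Akap5, Dlg4) and 6 fell, among them the Kcnd partner Dpp6 (-2.0 ± 0.31, or -1.59 without dKO replicate 3) and the ankyrin Ank3 (-1.13 ± 0.080; edgeR adjusted p 0.000298 and 1.85e-07). The Dlg4 call was lost without dKO replicate 3 (0.78, edgeR adjusted p 0.0744). Of 11 tested potassium pumps and cotransporters 2 rose, among them Atp1b2 (1.49 ± 0.079, edgeR adjusted p 1.82e-08), and 4 fell, with a median of -0.04. The background for these counts is that given above for all genes.

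Markers of cell types in which these channels are usually found moved in different directions. Their counts stand beside 33.7% of all genes called higher in dKO and 31.0% lower. Over 9 neuronal genes the summed level was 449 to 525 CPM in WT, 214 to 253 in dKO and 425 to 494 in rescue; of 7 tested 4 rose in dKO and 3 fell, and Syt1 was at 0 in WT. Stmn2 alone made up 399.7 to 473, 153 to 201 and 311 to 381 CPM of these sums, and the other 8 genes 49.3 to 52.3, 51.9 to 60.5 and 112 to 117. Of these 8, Tubb3 alone measured 29.6 to 31.8 CPM in WT, 17.9 to 23.4 in dKO and 90.6 to 97.4 in rescue. Of the 7 tested neuronal genes 1 was called higher in rescue than in WT, 1 lower and 5 were not called (26.8% and 27.3% of all genes higher and lower). For 4 astrocyte genes the sums were 89.4 to 98.5, 131 to 149 and 94.1 to 101 CPM, with 1 of 2 tested higher in dKO and Aqp4 at 0 in WT and rescue. All but 2.09 to 3.58 CPM of each astrocyte sum was Aldh1l1. Cardiac markers (7 genes) summed to 5.83 to 6.86, 11.2 to 12.9 and 5.17 to 5.98 CPM, with 2 of 4 tested higher and 1 lower, and Myh7 and Actc1 at 0 in WT. Myh6 alone made up 4.99 to 6.48 CPM of the dKO sum, and averaged 0.0622 CPM in WT and 0.492 in rescue. The other cardiac genes together summed to 4.67 to 6.61 CPM in dKO. Smooth muscle markers (4 genes) summed to 0.560 to 0.773, 1.62 to 3.27 and 0.943 to 1.34 CPM, with 1 of 2 tested higher and Acta2 at 0 in WT. All 5 primitive endoderm markers rose in dKO, at sums of 7.51 to 8.95, 44.0 to 48.4 and 7.29 to 8.47 CPM. They differed in rescue: Sox17 averaged 0.194 CPM in WT, 0.884 in dKO and 1.01 in rescue, and Sox7 0.928, 7.20 and 0.364. In rescue against WT 1 of the 5 was called higher, 1 lower and 3 were not called (26.8% and 27.3% of all genes higher and lower). All 3 tested of 5 fibroblast markers rose, at 2.11 to 3.86, 32.2 to 34.2 and 3.26 to 3.50 CPM, with Lum at 0 in every group and Dcn at 0 in WT and rescue. Thy1 carried the fibroblast sum in dKO, at 28.7 to 30.8 CPM, and the other 4 genes summed to 0.980 to 1.31 in WT, 2.99 to 3.47 in dKO and 1.46 to 1.96 in rescue. Of the 8 ES cell markers 6 fell in dKO and 2 rose. The part of other cell types in the Kcn values was not tested.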

How the data were processed

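RNA was measured in 9 libraries (3 WT, 3 dKO, 3 rescue, grouped by the labels), prepared, per the labels' protocols, using the TruSeq RNA Library Prep Kit v2. That kit leaves strand unmarked, so overlapping and antisense genes cannot be told apart. The deposited values are whole read counts per gene, not normalized, and Trimmomatic, STAR 2.4.0, HTSeq and mm10 are named in the submitters' processing notes. Annotation, counting mode and peak caller: not given in the sources used here. The Suz12 file deposited by the authors holds other values, peak coordinates with no score.

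Counts of all 24222 genes were fitted in R 4.3.3 with edgeR 4.0.16 (TMM, filterByExpr by group, glmQLFit with robust dispersion, glmQLFTest, two-sided), 1 mean per group over all 9 libraries, with 6 residual degrees of freedom. P-values were Benjamini-Hochberg adjusted over 14145 tested genes and called under 0.05. SE is the log2 fold change over the root of the F value. The script was tested on simulated data. Precision follows from 3 libraries a group and from depth: 3 counts in a group are the floor for bounds. Alternatives were DESeq2 1.42.0, RLE factors, other filters, 2 groups only, a replicate block, and leaving out each library or the shifted chromosomes.

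Symbols were matched to RefSeq's GRCm38.p6 tables for 92 of 92 Kcn genes, 67 with a start. A peak counted when it overlapped the window within 1 kb by at least 1 base. The members and lists were chosen with earlier results of these data known. Named genes were Ezh1 and Ezh2, then in each class up to 4 called higher and up to 3 called lower in dKO against WT by smallest adjusted p, the gene with the largest adjusted p, and the 4 largest changes each way in rescue against WT. Other tested members are described too, except 4 that are counted in every total but not reported here by name or in the figures. The other chromatin samples were not analysed here.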

Additional observations from a re-analysis of the deposited data

How the results depend on the processing

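The 6 counts of called Kcn genes stayed within 1.5 times their value under DESeq2, RLE factors, no low-count filter, only the groups compared, the replicate block, and without the members on shifted chromosomes. Without the low-count filter 86 members were tested in place of 42, and the share called higher in dKO against WT was 47.7% (41 genes; 28.0% of all genes) in place of 71.4%. In rescue against dKO 43.0% (37 genes; 31.2% of all genes) were lower in place of 71.4%. The counts moved by more only where a mean of at least 2 CPM over the 9 libraries, dKO included, was required, which tests 20 members. In dKO against WT 14 were then higher and 3 lower, beside 32.4% and 29.4% of all genes kept. In rescue against dKO 15 were lower, beside 37.0% of all genes kept. In rescue against WT 6 were higher and 4 lower, beside 29.4% of all genes kept in each direction. Leaving out 1 library gave 27 to 33 higher and 4 to 5 lower in dKO against WT, 5 to 6 higher and 26 to 31 lower in rescue against dKO, and 10 to 14 higher and 7 to 8 lower in rescue against WT. Replicate numbers did not pair the samples (same-number correlations from -0.112 to 0.201, not all over 0.1). With the replicate block the counts were 30 and 5, 7 and 29, and 12 and 8. The number of members with a Suz12 peak was 53 with a 5 kb window, 39 with only peaks wider than the median and 48 with at least 200 bases of overlap.

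Of the named genes' values under the alternatives 1284 kept direction and call, 44 lost the call and 13 changed sign, and none of the 13 was called in the full fit. All came from leaving out 1 library, with log2 fold changes from -0.0732 to 0.40 for Kcnip3 in rescue against WT, -0.25 to 0.31 for Kcnip4 in dKO against WT, -0.010 to 0.16 for Kcnn1 in rescue against WT, -0.45 to 0.099 for Kcnn2 in rescue against dKO, -0.57 to 1.01 for Kcnk12 in rescue against WT, -0.63 to 0.42 for Kcng1 in rescue against WT, -0.15 to 0.46 for Kcnh1 in rescue against WT and -0.44 to 0.17 for Kcna2 in dKO against WT. The cause was not tested. Depth limits the 50 members that were not tested: at 0.0833 to 0.241 CPM for 3 counts, a count of 0 in 1 library allows a level up to that value.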
